A study of Mus musculus with 10 samples.

Results

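The histone mark H3K4me2 (histone H3 dimethylated at lysine 4), found at promoters and enhancers, was examined at 9 mouse genes that act at or next to the T cell receptor: Zap70, Lck, Lat, Themis, Cd28, Cd2, Cd5, Cd6 and Thy1. The genes were taken by name, with earlier results of these data known, so their shares beside those of all regions are a description. Every peak of the 8 H3K4me2 peak lists was given to its nearest protein-coding RefSeq gene within 100 kb. By this rule 196 of 152121 peaks belonged to the 9 genes. Peaks of the 8 lists that lay within 500 bp of each other were merged into common regions, and 30 of 30062 regions belonged to the 9 genes. Of these 30 regions, 15 overlapped their gene and 15 lay beyond it, the farthest at 66218 bp.

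The T cell receptor has no kinase of its own. When it binds antigen, the Src-family kinase Lck phosphorylates the CD3 chains, the kinase ZAP-70 docks on them, and ZAP-70 phosphorylates the membrane adaptor LAT, on which the enzymes of the next steps assemble. CD28 and CD2 add costimulatory and adhesive signals, and CD5 and CD6 tune the response. Group 2 innate lymphoid cells (ILC2s) carry no antigen receptor and are activated by cytokines such as IL-33, while T helper 2 (Th2) cells make the same type 2 cytokines after antigen recognition.

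All cells came from mice with airway inflammation in which both Gata3 alleles carry a yellow fluorescent protein (YFP) reporter, and were sorted by flow cytometry with antibodies and YFP. Cells labelled naive T cells, Th2 cells and ILC2s gave 2 libraries each, replicate 1 from bronchoalveolar lavage and replicate 2 from the mediastinal lymph node, so a pair of replicates also differs in site. For CD4+ lymphocytes there was 1 spleen library and 1 thymus library. The labels give neither the agent that caused the inflammation nor the sort gates nor the animals' ages, and the naive T cells therefore came from inflamed mice too. Another 2 samples are titled as immunoglobulin G (IgG) controls, although their labels name the H3K4me2 antibody, and they served here only as the control against which peaks had been called.

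The lists held 14723 to 21985 peaks from 11870820 to 24945548 sequenced tags. A peak's value is the authors' tag count scaled to 10000000 tags, called tags below, and the tag minimum set for the peak finder came to 39.9 to 40.4 tags. The deposited values do not keep to it exactly, since values from 34.5 tags upward occur and 1.05% to 3.62% of the peaks in a list lay below it. Absence from a list therefore says that no peak passed the peak finder, not that the mark is missing. Peaks held 28.7% and 29.3% of all tags in the Th2 libraries and 37.3% to 53.7% in the other 6, and all Th2 values must be read against this. The naive T cell library of the lavage stood apart from its lymph node replicate. The overlap of their peaks (Jaccard index of covered bases) was 0.613, against 0.740 and 0.704 between the lavage naive T cells and the Th2 libraries and 0.845 between the lymph node naive T cells and the spleen. Of 7 ILC2 marker genes, 6 had a region in the ILC2 libraries, with 21064 and 22337 summed tags, against 3 or 4 genes and 2949 to 6312 tags in the T cell libraries. Of 10 T cell marker genes, 8 or 9 had a region in the T cell libraries, with 13475 to 24838 tags, and 6 in the ILC2 libraries, with 5085 and 5357 tags, where Cd4 and Themis had none. This T cell list holds 3 of the 9 genes described here. The B cell list of 7 genes had 1 to 4 genes with a region (49.2 to 607 summed tags), and the macrophage and neutrophil list of 7 genes had 1 to 3 (86.7 to 831 tags). Cd79a, Ms4a1, Csf1r, Lyz2, S100a8 and Mpo had none in any library, and the part of other cells in the results was not tested further.

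Start sites in the RefSeq promoter table (GRCm38.p6, the assembly of mm10) were available for 5 of the 9 genes, namely Zap70, Lck, Lat, Themis and Cd5, and the genes Cd28, Cd2, Cd6 and Thy1 had no entry. Windows of 300 bases, 250 before the start and 50 after it, are printed 5′ to 3′ on the gene's strand for starts under a peak in both ILC2 libraries (Zap70, the proximal start of Lck, Lat), for a start under a peak in lavage ILC2s alone (the distal start of Lck) and for starts under none in ILC2s but under a peak in all 6 T cell libraries (Themis, Cd5). Capitals mark matches, on either strand, to 5 short motifs of factor families that act in lymphocytes. The letters searched were CCGGAA for the ETS family, TGTGGT for the RUNX family, AGATAA for the GATA family, CTTTGA for the TCF family and CAGCTG for E-box proteins. No match overlapped another.
Zap70, chr1:36761548-36761847, plus strand: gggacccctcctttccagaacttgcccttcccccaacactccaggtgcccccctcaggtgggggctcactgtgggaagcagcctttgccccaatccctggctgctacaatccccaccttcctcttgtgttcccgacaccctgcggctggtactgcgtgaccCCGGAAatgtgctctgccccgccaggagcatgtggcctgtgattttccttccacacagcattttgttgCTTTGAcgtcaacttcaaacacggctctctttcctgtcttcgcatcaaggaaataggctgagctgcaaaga
Lck, distal start, chr4:129573592-129573891, minus strand: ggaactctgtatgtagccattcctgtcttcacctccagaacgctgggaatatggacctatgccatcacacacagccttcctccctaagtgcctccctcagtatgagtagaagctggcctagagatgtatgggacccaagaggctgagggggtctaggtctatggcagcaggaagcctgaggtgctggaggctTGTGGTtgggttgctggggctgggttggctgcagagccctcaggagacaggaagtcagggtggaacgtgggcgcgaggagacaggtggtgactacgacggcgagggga
Lck, proximal start, chr4:129558323-129558622, minus strand: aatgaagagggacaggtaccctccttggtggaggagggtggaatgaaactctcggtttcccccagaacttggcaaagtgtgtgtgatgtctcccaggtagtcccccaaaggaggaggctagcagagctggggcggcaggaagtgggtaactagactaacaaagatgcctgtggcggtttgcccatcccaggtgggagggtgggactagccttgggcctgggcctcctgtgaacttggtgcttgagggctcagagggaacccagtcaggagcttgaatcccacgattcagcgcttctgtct
Lat, chr7:126369519-126369818, minus strand: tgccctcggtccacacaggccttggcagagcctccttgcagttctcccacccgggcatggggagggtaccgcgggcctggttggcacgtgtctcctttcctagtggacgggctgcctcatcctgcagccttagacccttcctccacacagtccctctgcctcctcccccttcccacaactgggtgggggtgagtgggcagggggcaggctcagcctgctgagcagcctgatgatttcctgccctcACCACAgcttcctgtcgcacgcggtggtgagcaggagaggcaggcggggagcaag
Themis, chr10:28668110-28668409, plus strand: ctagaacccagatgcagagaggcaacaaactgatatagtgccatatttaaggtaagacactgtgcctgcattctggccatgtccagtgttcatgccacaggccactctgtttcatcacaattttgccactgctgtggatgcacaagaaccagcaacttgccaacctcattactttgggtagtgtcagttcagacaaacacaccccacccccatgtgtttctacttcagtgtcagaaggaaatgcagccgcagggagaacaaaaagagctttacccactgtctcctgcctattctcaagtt
Cd5, chr19:10738925-10739224, minus strand: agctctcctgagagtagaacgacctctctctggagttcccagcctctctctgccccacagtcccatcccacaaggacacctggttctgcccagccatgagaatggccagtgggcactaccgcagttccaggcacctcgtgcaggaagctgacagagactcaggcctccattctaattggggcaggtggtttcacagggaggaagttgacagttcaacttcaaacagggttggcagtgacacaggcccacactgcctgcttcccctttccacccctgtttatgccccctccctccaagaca

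The printed Zap70 window held 1 ETS and 1 TCF match. The distal Lck window and the Lat window held 1 RUNX match each, in Lat as its reverse complement ACCACA. Further starts of Zap70, at 36764515, and of Themis, at 28668395, met the rule for printing but are not printed. That Zap70 window held 1 RUNX match and no other, and that Themis window held none. The proximal Lck, Themis and Cd5 windows held none of the 5 motifs. Among the 32851 promoters of the table, 14.9% held the ETS motif, 16.8% the RUNX motif, 11.2% the GATA motif, 16.0% the TCF motif and 16.3% the E-box, so a match or its lack is common at this length. The Themis window was poor in CpG, with 1 CpG dinucleotide against a median of 7 over all promoters. The Cd5 window held 3, the proximal Lck window 5, the distal Lck window 7, the Zap70 window 8 and the Lat window 10. Of the unprinted windows, that of Themis held 2 and that of Zap70 at 36764515 held 5. Starts with T cell peaks but no ILC2 peak, at Themis and Cd5, thus had the lowest counts. The Zap70 start at 36778984, under no peak in any library, held 9. These are few starts of 5 genes, and a link between CpG count and peaks was not tested.

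The 9 genes fell into 4 groups by what was called in ILC2s. Zap70 kept its H3K4me2 at nearly the T cell level. Lck, Lat, Thy1, Cd28 and Cd2 kept peaks that covered less length in all than those of T cells. Cd5 kept 1 peak away from the gene, between Cd5 and Cd6, and Themis and Cd6 had no peak assigned to them. The mean of all tags at a gene in the 2 ILC2 libraries, as a share of that in the 2 naive T cell libraries, was 79.5% at Zap70, 20.3% at Lck, 20.3% at Thy1, 11.4% at Lat, 10% at Cd28, 8.80% at Cd2 and 3.72% at Cd5. In these bulk libraries a lower level in every cell and a mark present in fewer cells cannot be told apart.

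**Figure D1:**
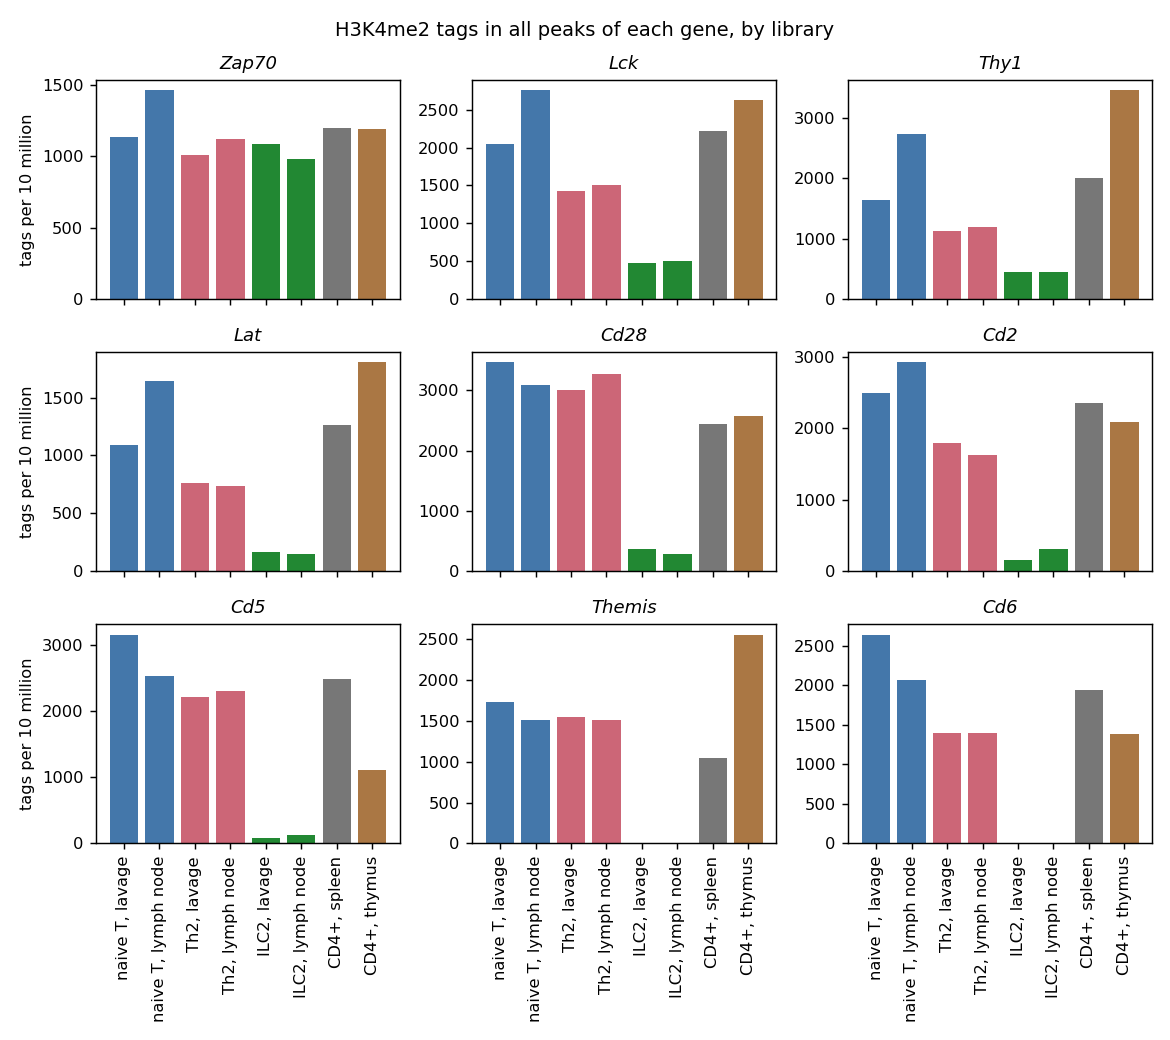
Summed H3K4me2 tags of all peaks assigned to each gene (tags per 10000000 sequenced, linear axis from 0) in each of the 8 libraries; each bar is 1 library and colours mark cell types. The ILC2 bars reach 1089 and 978 tags at Zap70 and are absent at Themis and Cd6.

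Zap70, the kinase that docks on the phosphorylated receptor chains, carried 1 domain over the 5′ part of the gene. Its tags were 1135.1 and 1415 in naive T cells, 1008.6 and 1117.9 in Th2 cells, 1037.9 and 917.2 in ILC2s, 1197.1 in spleen and 1074.2 in thymus. The ILC2 and Th2 values overlapped, and those of naive T cells were above both ILC2 values. In limma, fitted over 11644 regions with libraries centred on their medians, the ILC2 minus naive T difference was -0.20 (log2, SE 0.15, adjusted p = 0.563, Benjamini-Hochberg), with a 95% interval of -0.58 to 0.19. Without the centring the ILC2 minus Th2 difference was -0.12 (limma adjusted p = 0.671). With it, the ILC2 minus Th2 difference was -0.56 (SE 0.15, adjusted p = 0.123), with an interval of -0.94 to -0.17. That call depended on which libraries were fitted, because without the lavage or without the lymph node naive T cell library the adjusted p was 0.0235 or 0.0258. The domain ran over chr1:36760337-36770633 in ILC2s of the lavage, 10.3 kb, and over 9.15 to 10.2 kb in the naive T, Th2 and spleen libraries, with 7.65 kb in thymus. It covered the start sites at 36761798 and 36764515 in all 8 libraries, while a start listed at 36778984 lay under no peak in any. A small second peak 1477 bp past the gene's end coordinate was called in both ILC2 libraries (51.3 and 60.9 tags), in lymph node naive T cells (48.8) and in thymus (117.7), and in neither Th2 library. All of these but the thymus peak were close to the required minimum.

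Lck, the kinase that starts the cascade, kept both of its starts near or under a peak in ILC2s, with no peak in the stretch between. Its tags were 2049.6 and 2759.8 in naive T cells, 1421.3 and 1504.5 in Th2 cells, 473 and 503.7 in ILC2s, 2224.5 in spleen and 2624.9 in thymus. Both ILC2 values were below all 6 T cell values. The ILC2 minus naive T difference was -2.10 (log2, SE 0.13, limma adjusted p = 0.00354), 4.30-fold lower, and the ILC2 minus Th2 difference was -2.02 (adjusted p = 0.0059). In lavage naive T cells a single peak of 22.2 kb ran over most of the gene and past both starts. Lymph node naive T cells, Th2 cells, spleen and thymus had 2 separate peaks. At the proximal start those of Th2 cells held 248.1 and 229.1 tags over 4.27 and 3.70 kb, against 3.55 and 3.91 kb in ILC2s. At the distal start those of Th2 cells held 1173.2 and 1275.4 tags. In lavage ILC2s the same locus held a peak over the proximal start, chr4:129555465-129559011 with 197.6 tags, and another over the distal start, chr4:129573015-129577222 with 275.4 tags. Lymph node ILC2s had the same pair, with 208.5 and 295.2 tags. The second of these began at 129573816, just past the distal start at 129573641, so that this start was covered in 7 of 8 libraries and the proximal start, at 129558372, in all 8. The upstream peak also extends towards the neighbouring gene Fam167b, to which the lymph node ILC2 peak is nearer, so its share at Lck is uncertain.

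Lat, the adaptor phosphorylated by ZAP-70, kept a peak over its start in ILC2s and none at its other regions. At the region over the gene the tags were 536.6 and 933.6 in naive T cells, 430.1 and 380.8 in Th2 cells, 161.6 and 149.4 in ILC2s, 758.9 in spleen and 990.7 in thymus. The ILC2 values were again the lowest pair, and the difference from naive T cells was -2.01 (log2, SE 0.17, limma adjusted p = 0.00637) and from Th2 cells -1.82 (adjusted p = 0.0118). The lavage ILC2 peak, chr7:126368001-126370795, covered the start at 126369568 and 2.79 kb in all, against 6.19 kb in lavage naive T cells. This region also overlaps the neighbouring gene Spns1, and the peaks do not say which gene they serve. A region 4412 bp below the gene's lower coordinate held 417.9 and 348.2 tags in naive T cells, 329.8 and 355.5 in Th2 cells, 244.3 in spleen and 345.1 in thymus, and had no peak in ILC2s. Another pair of regions, 21952 and 32279 bp below the gene, was called in both naive T cell libraries, spleen and thymus, and in neither Th2 nor ILC2 cells. At the nearer of these the naive T cells of the lavage had 38.5 tags and those of the lymph node 196.2, with 117.5 in spleen and 302.6 in thymus. At the farther of them the values were 98.6 and 162.1 in naive T cells, 144 in spleen and 165.5 in thymus.

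Themis, a thymocyte-expressed protein that tunes signalling from the receptor during T cell selection, had no peak in either ILC2 library. Over its start, chr10:28664690-28678677, the tags were 1196.6 and 1293.5 in naive T cells, 1092.8 and 992.3 in Th2 cells, 931.8 in spleen and 1920 in thymus. Thymus was the highest of the 6 T cell libraries and spleen the lowest. A region farther into the gene, chr10:28680387-28688380, held 447.2 and 144.2 tags in naive T cells, 358.4 and 352.1 in Th2 cells, 63.9 in spleen and 325.2 in thymus. Lavage naive T cells and both Th2 libraries were the highest there, and lymph node naive T cells and spleen the lowest. The next region, chr10:28692349-28696583, was called in the same 6 libraries with 55 tags in spleen, 79.2 to 123.8 in naive T and Th2 cells and 253.7 in thymus. The remaining pair were single-library peaks near the minimum, 59.4 tags in thymus and 41.3 tags in lymph node Th2 cells. With no peak in ILC2s no fold change was computed. The lowest peaks of any gene in the ILC2 lists had 36.1 and 35.9 tags, and signal that failed a criterion of the peak finder would not appear.

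Cd28, the main costimulatory receptor, kept short peaks in ILC2s inside a long T cell domain. At the region over the lower and middle part of the gene, chr1:60744107-60766738, the tags were 2732.9 and 2375 in naive T cells, 2426.1 and 2576.1 in Th2 cells, 327.9 and 243.5 in ILC2s, 1981.2 in spleen and 1906.3 in thymus. ILC2s were below every T cell library. Their difference was -2.99 against naive T cells (log2, SE 0.28, limma adjusted p = 0.0073), 7.96-fold lower, and -3.58 against Th2 cells (adjusted p = 0.00771). Where lavage naive T cells had a domain of 21.2 kb, lavage ILC2s had peaks of 3.51 kb (238.1 tags) and 1.78 kb (89.8 tags), and lymph node ILC2s had the same pair with 133.6 and 109.9 tags. The region at the other end of the gene, chr1:60771106-60782637, held 423.7 to 730.1 tags in the 6 T cell libraries and had no peak in ILC2s. Its peaks reached the gene in lavage naive T and Th2 cells. In lymph node naive T cells, spleen and thymus they lay 1697, 2166 and 1788 bp beyond it. A peak 31882 bp below the gene was called in both ILC2 libraries at 40.5 and 46 tags and in lymph node naive T cells at 50.4, all close to the minimum.

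Cd2, an adhesion receptor that binds CD48 in the mouse, kept 2 short peaks in lavage ILC2s, below the gene and above it. Over chr3:101273099-101301569 the tags were 2125.2 and 2665.1 in naive T cells, 1511.1 and 1415.3 in Th2 cells, 162.8 and 314.1 in ILC2s, 2169 in spleen and 1811.3 in thymus. The difference from naive T cells was -3.22 (log2, SE 0.29, limma adjusted p = 0.00726), 9.29-fold lower, and from Th2 cells -3.13 (adjusted p = 0.0116). The ILC2 peaks lay at chr3:101274241-101275778 (71 tags) and chr3:101295429-101296985 (91.8 tags) in the lavage. Lymph node ILC2s had them at 110.4 and 160.3 tags, with a further peak of 43.4 tags. The upper ILC2 peak lay 7490 bp beyond the gene in the lavage and 7142 bp in the lymph node. All T cell libraries but lavage naive T cells had a separate peak at this place. Its tags were 137.8 and 80.9 in Th2 cells, which overlapped the ILC2 values, 485.9 in lymph node naive T cells, 477.8 in spleen and 613.6 in thymus. A region 37178 bp below the gene held 264.1 and 119.4 tags in naive T cells, 209.5 and 151.6 in Th2 cells, 94.6 in spleen and 122.4 in thymus, and had no peak in ILC2s.

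Cd5 and Cd6 encode related scavenger-receptor proteins of the T cell surface and are neighbours on chromosome 19. The Cd5 region held 3151.7 and 2528.6 tags in the naive T cell libraries, 2216.1 and 2299.8 in Th2 cells, 83 and 128.3 in ILC2s, 2476.6 in spleen and 1107.8 in thymus. The difference of ILC2s from naive T cells was -4.59 (log2, SE 0.31, limma adjusted p = 0.00357), 24.1-fold lower, and from Th2 cells -4.89 (adjusted p = 0.0059), the largest among the 8 regions tested in either comparison. What was left in ILC2s was a peak at chr19:10762482-10764375 in the lavage and a matching one in the lymph node, 23456 and 23162 bp above the gene's end coordinate, between Cd5 and Cd6. The lower coordinate of Cd6, 10789339, was only slightly farther away, so the choice between these genes is uncertain. The fold above sets this peak against all T cell peaks of the region. Separate peaks at this place held 348.2 tags in lymph node naive T cells, 333.5 and 370.7 in Th2 cells, 382.2 in spleen and 209.6 in thymus. The Cd5 start was covered in all 6 T cell libraries and in neither ILC2 library. Cd6 had 2 regions. The upper, chr19:10809019-10831455, held 1605.3 and 1260.6 tags in naive T cells, 939.5 and 996.5 in Th2 cells, 1213.4 in spleen and 792.7 in thymus. The lower, chr19:10771219-10789653, held 1035.2 and 808 tags in naive T cells, 462.5 and 398.4 in Th2 cells, 722.6 in spleen and 589.9 in thymus. ILC2s had no peak at either, and the thymus, highest at Themis, was the lowest T cell library at Cd5 and at the upper Cd6 region.

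Thy1 encodes the glycolipid-anchored surface protein used to mark T cells and innate lymphoid cells of the mouse. Its regions at the gene and below it held fewer tags in ILC2s than in T cells, over less covered length. Tags per kb of peak at the gene were 63.3 and 53.7 in ILC2s and 52.4 to 108 in T cells. In the region below it they were 50.4 and 55.4 in ILC2s and 54.7 to 92.0 in T cells. At the gene the tags were 506.5 and 916.5 in naive T cells, 418.9 and 421.2 in Th2 cells, 179.6 and 151.6 in ILC2s, 732.3 in spleen and 1166.7 in thymus. At the region 7397 bp below the gene, chr9:44010140-44035987, they were 1133.9 and 1655.2, 709.4 and 768.3, 258.1 and 300.9, 1229.8 and 2293.5 in the same order. Both regions were lowest in ILC2s and highest in thymus, where the region below the gene was a single peak of 24.9 kb. The ILC2 minus naive T differences were -1.87 (log2, SE 0.19, limma adjusted p = 0.00848) at the gene and -2.12 (SE 0.13, adjusted p = 0.00354) below it, 3.64-fold and 4.34-fold lower. Against Th2 cells they were -1.78 (adjusted p = 0.0147) and -1.84 (adjusted p = 0.00673). In lavage ILC2s the peaks were chr9:44042939-44045778 (179.6 tags) over the lower end of the gene, chr9:44030632-44034753 (199.6 tags) and chr9:44019609-44020609 (58.5 tags), and lymph node ILC2s had matching peaks with 151.6, 240.5 and 60.4 tags.

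**Figure D2:**
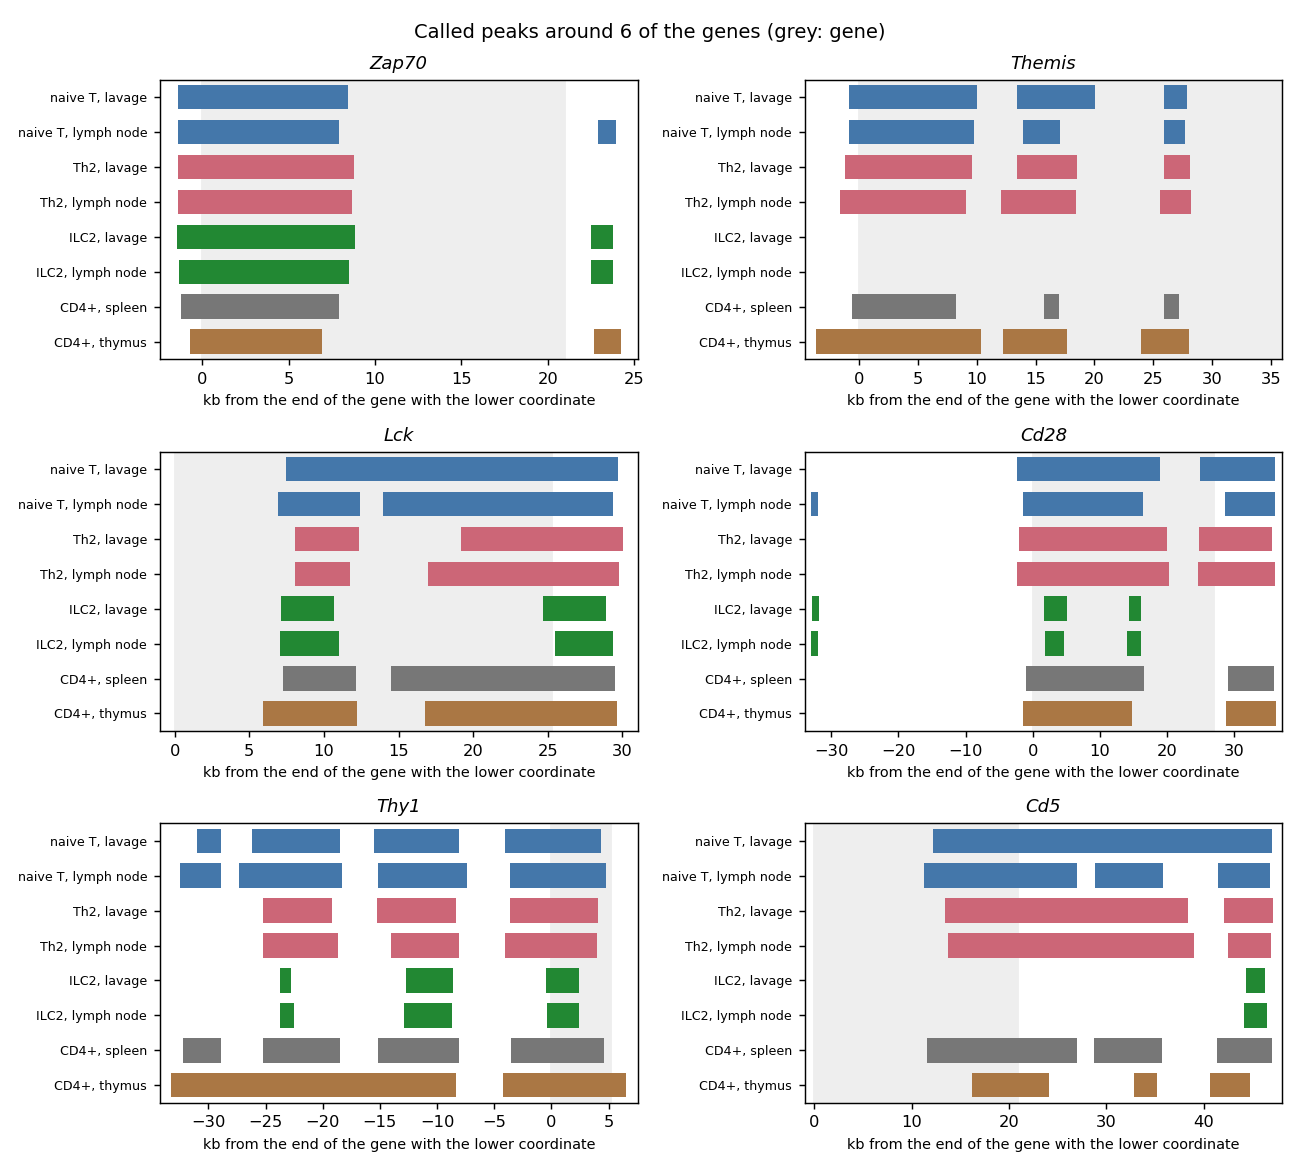
Called peaks (bars) of each library around 6 of the genes, with position in kb from the gene's lower coordinate on the x axis and the gene shaded grey. The x ranges differ between panels, and the Themis, Cd28 and Thy1 panels leave out peaks farther away. Among those left out is the region 19982 bp above Cd28, called in 3 libraries. ILC2 peaks match the T cell domain in length at Zap70 and cover less length in all than T cell peaks at Lck, Cd28 and Thy1. They lie only beyond the gene at Cd5 and are absent at Themis.

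Across the 30 regions, 10 were called in both naive T cell libraries and in neither ILC2 library, where 2.68% of all 30062 regions were. They were the 3 multi-library regions of Themis, 3 of the 4 of Lat and both of Cd6. The others were the Cd2 region 37178 bp below the gene and the Cd28 region at the far end of the gene. None of the 30 was called in both ILC2 libraries and in neither naive T cell library, where 10.7% of all regions were. The count of 10 was 16 with the lymph node naive T cells alone and 11 with those of the lavage alone. Against Th2 cells, 9 regions were called in Th2 cells alone (all regions, 1.39%) and 2 in ILC2s alone (all regions, 18%), the latter being the small peaks past Zap70 and below Cd28. Regions called in all 6 T cell libraries and in neither ILC2 library numbered 8 of the 30, against 119 of all regions (0.396%).

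Fewer of the 30 regions were called in ILC2s than in any T cell library. Each ILC2 library had a peak in 10 of the 30 regions (33.3%), while it had one in 68.6% and 68.9% of all regions. Th2 cells had peaks in 17 and 18 of the 30 (56.7% and 60%, all regions 47.2% and 46.9%), and naive T cells in 19 and 26 (63.3% and 86.7%, all regions 53.8% and 70.2%). Spleen had 21 and thymus 23 (70% and 76.7%, all regions 64.4% and 66.2%). All 8 libraries had a peak in 8 of the 30 regions, 26.7% of them, as against 36.7% of all regions, and 6 of the 30 were called in a single library, as were 17.1% of all regions.

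**Figure D3:**
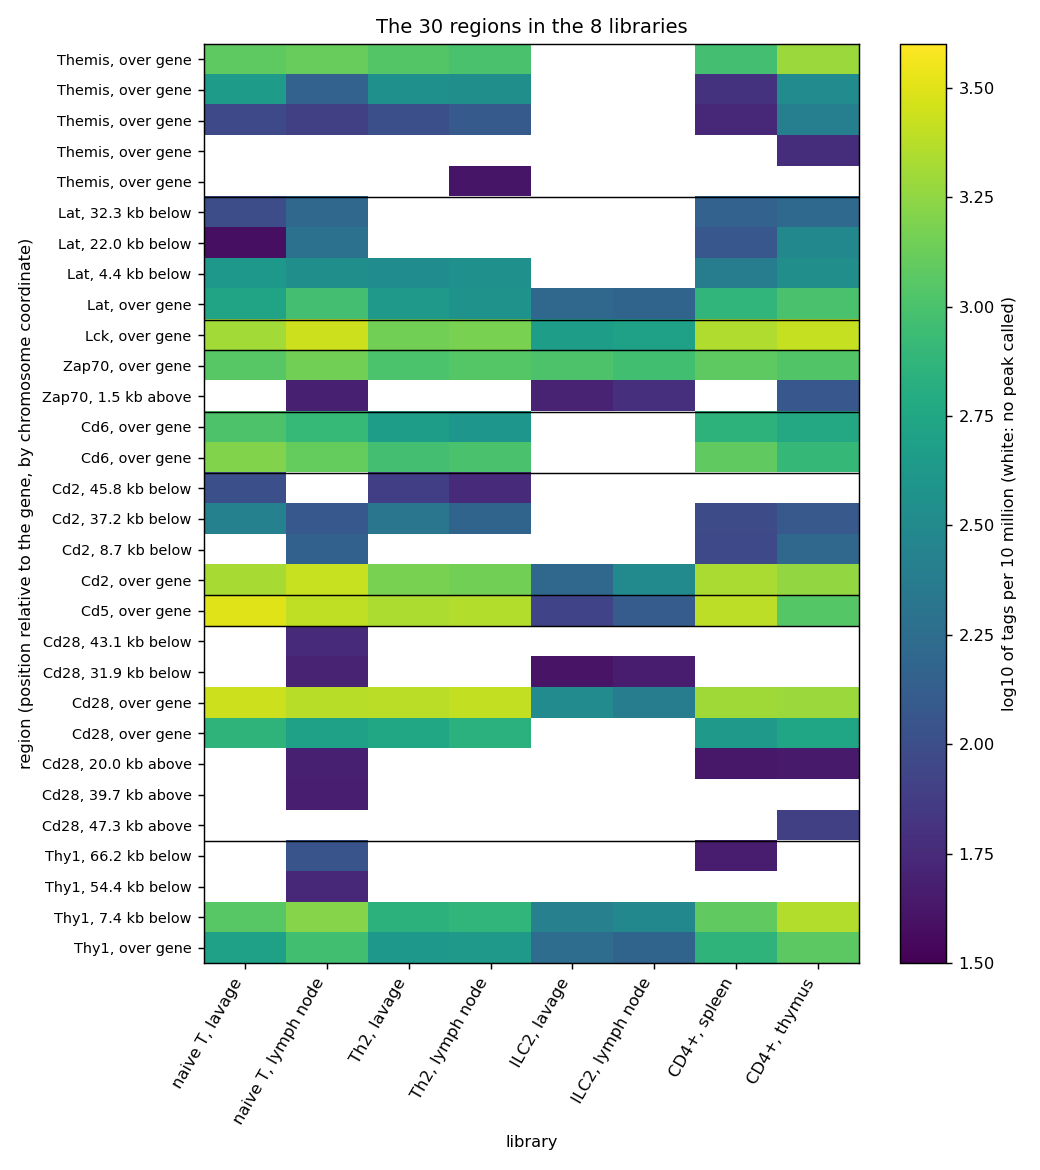
The 30 regions (rows, grouped by gene, with position relative to the gene) in the 8 libraries (columns); colour is log10 of tags per 10000000 and white means that no peak was called. The ILC2 columns are white for all Themis and Cd6 rows, and 10 rows are filled in each ILC2 library.

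Only the 8 regions called in all 6 naive T, Th2 and ILC2 libraries could enter the test of peak height. The regions without an ILC2 peak are therefore not among them. Height here means the tags summed over all peaks of a region, which also depend on the length covered. Of these 8, 7 were lower in ILC2s than in naive T cells and none was higher, where 1.83% of 11644 regions were lower and 2.98% higher (limma, adjusted p under 0.05). Against Th2 cells the same 7 were lower and none was higher, where 1.5% of regions were lower and 2.1% higher. The median log2 difference of the 8 was -2.11 against naive T cells and -1.93 against Th2 cells, and that of all regions was -0.02 and -0.01. Zap70 was the member that did not pass in either comparison. Leaving out a single ILC2 library left 0 or 1 of the 8 past the threshold against naive T cells, with adjusted p between 0.0503 and 0.106 for those that missed it apart from Zap70, and none against Th2 cells. Leaving out either Th2 library also left none against Th2 cells. The direction of all 7 stayed the same in every one of these fits.

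**Figure D4:**
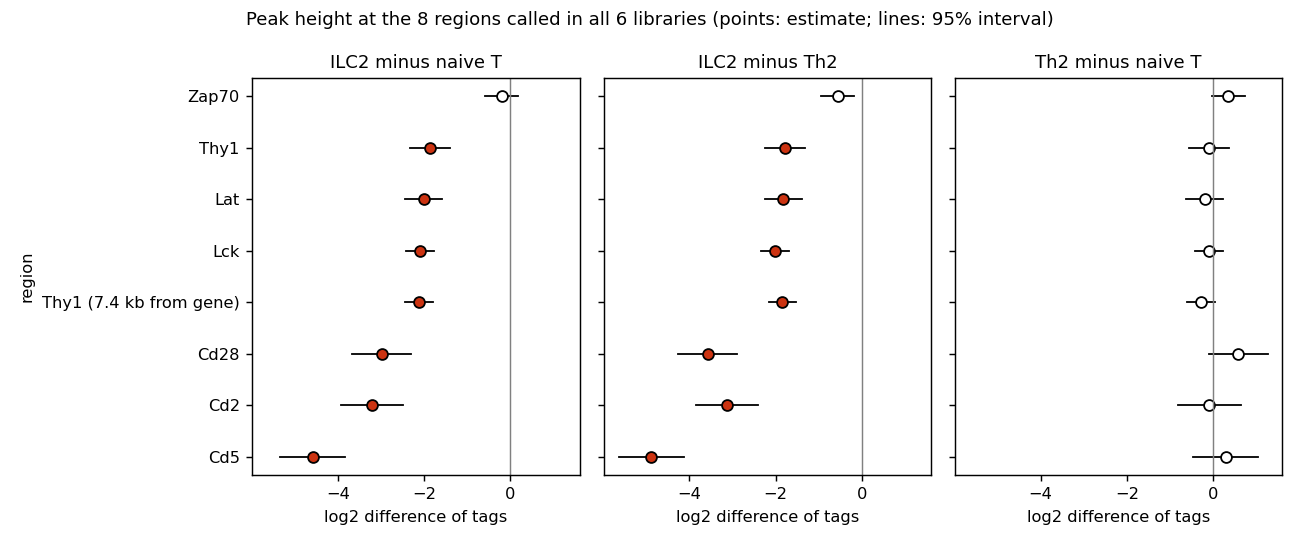
Log2 differences of tags at the 8 regions called in all 6 libraries, for ILC2 minus naive T, ILC2 minus Th2 and Th2 minus naive T; points are limma estimates, lines their 95% intervals, and filled points passed an adjusted p of 0.05. Filled points are 7 of 8 in both ILC2 panels and 0 of 8 in the Th2 minus naive T panel.

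At 7 of the 8 regions the peaks of ILC2s covered less length in all, while tags per kb of peak passed the test at fewer. Mean covered length at a gene in naive T, Th2 and ILC2 cells was 21.6, 15.8 and 7.76 kb at Lck, 28.8, 20.6 and 8.11 kb at Thy1, and 17.3, 11.8 and 2.70 kb at Lat. It was 30.9, 33.5 and 6.08 kb at Cd28, 30.6, 25.3 and 4.24 kb at Cd2, 31.4, 29.8 and 2.14 kb at Cd5, and 10.1, 10.2 and 11.3 kb at Zap70. When the covered length of the 8 regions took the place of their tags in limma, a setting chosen after seeing the data, 7 were shorter in ILC2s than in naive T cells, with log2 differences of -1.41 to -3.93 and adjusted p of 0.00392 to 0.0158, and Zap70 differed by 0.02 (adjusted p = 0.952). Tags per kb of peak fell at 2 of the 8, Lck by 0.58 (log2, adjusted p = 0.0327) and Lat by 0.60 (adjusted p = 0.031). Cd28 had the largest difference in tags per kb, -1.01, but did not pass (adjusted p = 0.0518), and the regions of Thy1 had -0.25 each (adjusted p = 0.393 and 0.471). Against Th2 cells tags per kb was lower at Lck (-0.83, adjusted p = 0.0287) and Cd28 (-1.28, adjusted p = 0.0494). Peaks were called against a tag minimum, so the length of a stitched peak and its tags are not independent readings.

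**Figure D5:**
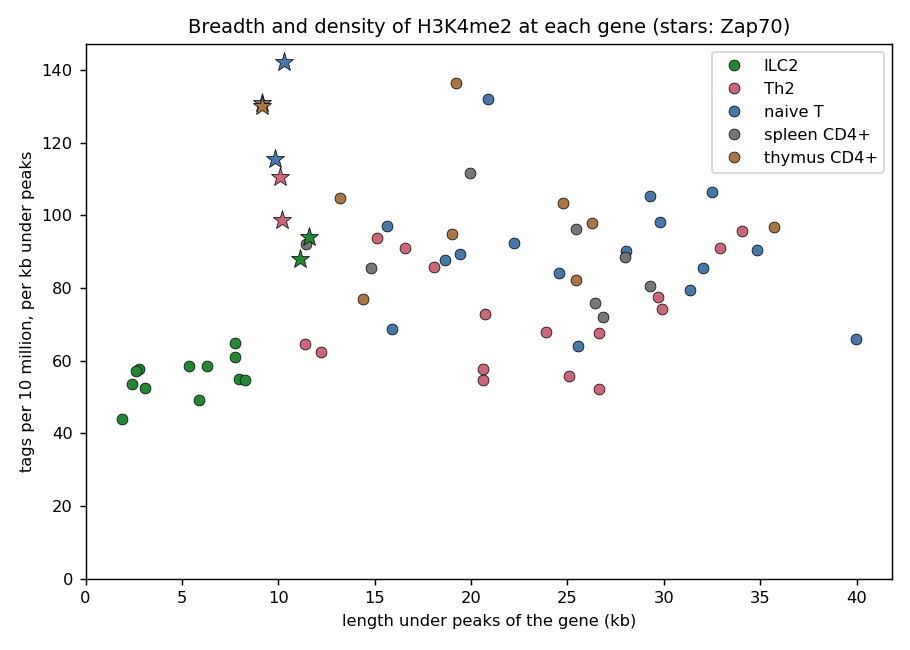
Tags per kb under peaks (y axis) against the length under peaks in kb (x axis) for each gene in each library with a peak; colours mark cell types and stars mark Zap70. ILC2 points other than Zap70 lie at 1.89 to 8.25 kb and at 43.8 to 64.8 tags per kb, while the Zap70 stars of ILC2s stand at 94.1 and 87.9 tags per kb.

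Between Th2 and naive T cells the test of height covered the same 8 regions. Regions without an ILC2 peak, among them all of Themis and Cd6, were not tested in this comparison either. None of the 8 passed in limma in either direction, where 0.112% of all regions were higher and 0.00859% lower in Th2 cells, and none had an unadjusted p under 0.05, as 2245 of the 11644 did. The Th2 minus naive T differences ran from -0.28 (below Thy1, adjusted p = 0.291) to 0.59 (Cd28, adjusted p = 0.291, 95% interval -0.09 to 1.27), so differences of up to about that size are not excluded. These values are relative to the library medians. Without that centring the median of all regions was -0.61, and the positive signs at Zap70, Cd28 and Cd5 turned negative. Cd28 depended on the naive T cell library that stood apart, since without the lavage library its difference was 0.92 (adjusted p = 0.0267), a fit in which 1910 of 11752 regions were higher in Th2 cells and 1127 lower. By calls, none of the 30 regions was found in Th2 cells alone (all regions, 1.01%) and 2 in naive T cells alone (all regions, 5.28%), the distal pair below Lat. With the lymph node naive T cells alone the latter count was 10, and with those of the lavage alone it was 2.

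Lymph node naive T cells and spleen CD4+ cells were grouped as resting cells of lymphoid organs, a name the sample titles do not give them. The grouping of these libraries was proposed with earlier results of these data known. Against this pair, Th2 cells lacked 5 of the 30 regions. This is 16.7% of the 30, near the 19.5% of all regions that were called in both resting libraries and in neither Th2 library. The 5 were the distal Lat pair, a region 8659 bp below Cd2 (141 tags in lymph node naive T cells, 91.8 in spleen and 157.6 in thymus), a region 19982 bp above Cd28 (48.8, 43.4 and 44.7 tags) and a region 66218 bp below Thy1 (110.9 and 46.6 tags, none in thymus). The last 3 were also uncalled in lavage naive T cells. A single region was called in both Th2 libraries and in neither resting library (all regions, 3.05%). It lay 45766 bp below Cd2, with 77.3 and 56.4 tags in Th2 cells and 102.4 in lavage naive T cells, and no other library had it.

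Where all 4 of these libraries had a peak, 16 of the 30 regions could be compared by height, without a test. In tags as deposited, both Th2 libraries were above both resting libraries at 5 of the 16, against 8.83% of 11960 regions. These were the Cd28 regions over the gene and at its far end, the Themis regions behind the start region and the Cd2 region 37178 bp away. Both Th2 libraries were below both resting libraries at 9 of the 16, against 78.4% of all regions, and these were the regions over Zap70, Lck, Lat, Cd2 and Cd5, both of Cd6 and both of Thy1. Library medians over these regions were 7.23 and 7.28 (log2 tags) in Th2 cells and 8.11 and 7.89 in the resting libraries. Relative to those medians, 10 of the 16 were higher (all regions, 39.8%) and 3 lower (all regions, 37.2%), the latter being Lat and both of Thy1. The orders at Zap70, Cd5 and the upper Cd6 region thus flipped with the scaling, and those at Cd28, at the inner Themis regions and at the Cd2 region 37178 bp away did not. Lavage naive T cells, which are not in this pair, were above both Th2 libraries at 4 of the 5 regions where Th2 cells were above it as deposited, with 2732.9 and 730.1 tags at Cd28, 447.2 at Themis and 264.1 at Cd2. At the remaining Themis region they had 91.1 tags, below both Th2 libraries.

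The 2 naive T cell libraries disagreed at 9 of the 30 regions. The lymph node library had 8 that the lavage library lacked, at Cd28 (4), Thy1 (2), Cd2 (1) and Zap70 (1), and the lavage library had 1 that the lymph node library lacked, the Cd2 region 45766 bp below the gene. Peaks at the 8 held 47.9 to 141 tags in the lymph node library. Over all regions 6456 were called in the lymph node library alone and 1529 in the lavage library alone.

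A list of 30 other genes of the receptor pathway, among them the CD3 chains, Fyn, Lcp2, Plcg1 and Prkcq, had 149 regions at 28 genes. Of these regions 16, at 10 genes, were called in both naive T cell libraries and neither ILC2 library, and 1, at Rasgrp1, the reverse, against 2.68% and 10.7% of all regions. Of the 56 regions tested for height, 8 were lower in ILC2s than in naive T cells and 0 higher, with a median of -0.30. Of all regions tested, 1.83% were lower and 2.98% higher. Cd3e, a receptor chain, held 660.8 and 842.2 tags in the naive T cell libraries, 562.3 and 541.7 in Th2 cells and 65.7 and 78.8 in ILC2s, with an ILC2 minus naive T difference of -3.19 (log2, SE 0.13, limma adjusted p = 0.0023). Its neighbour Cd3d held 1904.6 and 2736.2 tags in the naive T cell libraries and 264.1 and 275.1 in ILC2s, a difference of -2.90 (SE 0.13, adjusted p = 0.0023). The other 6 were Fyn (-1.59), Plcg1 (-1.44), Prkcq (-1.32), Grap2 (-1.25), Sit1 (-1.20) and Ubash3a (-0.79). Against Th2 cells 8 of the 56 were lower and 0 higher (median -0.34), where 1.5% of all regions were lower and 2.1% higher. Between Th2 and naive T cells 0 of the 56 passed (median 0.18), near the 0.112% of all regions higher and 0.00859% lower. These medians stand beside -2.11, -1.93 and -0.08 for the 8 regions of the 9 genes, and the difference between the lists was not tested.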

How the data were processed

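The values are those of 8 deposited H3K4me2 peak lists of mouse cells. Bowtie, HOMER and the mm10 genome are named in the submitters' processing notes, and versions are not given in the sources used here. Per the file headers, HOMER findPeaks called peaks in each library separately, with peaks of 1000 bp stitched into variable lengths, a minimum distance of 2500 bp, a false discovery rate of 0.001 and 4-fold excess over IgG of the thymus (for the spleen list, IgG of the spleen). The deposited signal of a peak is the authors' normalized tag count, per 10000000 tags of the library. The deposited fold change (ratio) over IgG was used as a description only, and was 5.46 to 118 (median 29.6) in the 197 peaks lying in the 30 regions. One of these, at Lck, had Fam167b as its own nearest gene.

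Peaks of all 8 lists within 500 bp were merged, with tags summed per region and library, and 95.2% of regions had a gene within 100 kb in the RefSeq table of GRCm38.p6. That table gives no exons, so parts of genes were not annotated. A region counted as called in 1 cell type when both libraries of that type and neither of the other had a peak, with no test. Heights were compared with limma 3.58.1 (R 4.3.3, lmFit and eBayes with trend, n = 2 a cell type, Benjamini-Hochberg over all 11644 regions called in 6 libraries, threshold 0.05) on log2 tags centred on each library's median. The procedure was tested on simulated data with independent noise and no difference of site between replicates. That test therefore does not cover this feature of the samples. All 9 genes were named, with all their regions. The genes, gene lists, motifs and comparisons were chosen with earlier results of these data known. Replicates differ in site, the labels do not say whether they came from separate animals, and the p-values measure only the spread between these samples. Alternatives were the merging distance, equal numbers of peaks, a minimum of 80 tags, the gene distance, the lists that make the regions, centring, tags per kb, a replicate block, the number of libraries with a peak, and each library left out. Added after seeing the data were covered length, the spleen library counted with naive T cells, and the ordering of Th2 and resting libraries by height.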

Additional observations from a re-analysis of the deposited data

How the results depend on the processing

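Counts of regions called in 1 cell type depended on the peaks that entered and on the naive T cell library used. With each library left out in turn, the regions found in naive T cells and not ILC2s (10) numbered 10 to 16, and the reverse (0) 0 to 2. Those found in naive T cells and not Th2 cells (2) numbered 2 to 10, and the reverse (0) 0 to 1. With either Th2 library left out, those found in Th2 cells and not resting cells (1) numbered 1 to 2, and leaving out a resting library was not run. With as many peaks taken from each list as the shortest holds, the 2 regions of naive T against Th2 cells became 1, the 2 of ILC2s against Th2 cells 0, the 5 of resting against Th2 cells 3, and the 1 of Th2 against resting cells 2. With peaks of at least 80 tags the same counts were 1, 0, 3 and 1. With genes within 10 kb they were 0, 1, 1 and 0, and with every gene within 50 kb 5, 4, 11 and 2. With both naive T cell libraries and spleen as the resting set, 2 regions were found in resting cells alone and 0 in Th2 cells alone.

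For peak height, the 7 regions lower in ILC2s than in naive T cells became 2 in tags per kb and 0 to 7 with each library left out. The 7 lower than in Th2 cells became 2 in tags per kb and 0 to 8 with each library left out. The count higher in Th2 than in naive T cells (0) was 0 to 1. A lone library is assumed to vary like the others in these fits. With the replicate number as a replicate block, 7 were lower in ILC2s than in naive T cells, 7 lower than in Th2 cells, and 0 differed between Th2 and naive T cells. Over all regions the block gave 126 higher and 117 lower in ILC2s than in Th2 cells, against 244 and 175 without it, and 0 between Th2 and naive T cells, against 14. Same-numbered samples share a site, and the labels do not say that they share an animal, batch or day. Correlations of their deviations from the group means were 0.107, -0.01 and 0.258, not all over 0.1, and the samples were not treated as pairs. Without centring the counts for the 8 regions were the same, while all regions gave 46 higher and 704 lower in Th2 than in naive T cells, and 793 higher and 120 lower in ILC2s than in Th2 cells. Counting the spleen with naive T cells gave 7 lower in ILC2s and 0 between Th2 and naive T cells, although over all regions the last comparison then gave 318 higher and 365 lower. Over all regions, tags per kb gave 58 higher and 27 lower in ILC2s than in naive T cells, 8 and 10 than in Th2 cells, and 0 between Th2 and naive T cells, where covered length gave 56 and 101. With each library left out, counts over all regions ran from 0 to 1558 higher and 0 to 784 lower in ILC2s than in naive T cells, 0 to 1014 and 0 to 1085 than in Th2 cells, and 0 to 1910 and 0 to 1127 in Th2 than in naive T cells. Refits of single regions against naive T cells missed the threshold in 18 of 120 and against Th2 cells in 33 of 112 where the reported fit had passed it, and 0 of these changed direction. Peaks near the minimum of 40 tags are at the limit of what these depths show. The cause of these shifts was not tested.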
